A study of Onthophagus taurus with 96 samples.

Results

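The insect cuticle is built from chitin, structural proteins that bind it, and enzymes that make, modify and degrade it, and the genes for these components were examined in pupae of *Onthophagus taurus*, a horned dung beetle. Genes were chosen by name, as those named after a *Drosophila melanogaster* cuticle protein, obstructor, chitinase, Idgf or chitin deacetylase gene, or after kkv, knk, rtv, verm or serp, or described in their alias text as cuticle, cuticular or chitin. The rule gave 37 of the 17483 genes in the tables. All 37 carried a matching name, and the alias text found 4 of them again and no others. They comprised 3 genes of chitin synthesis and assembly, 5 chitin deacetylases, 8 chitinases and Idgf genes, 2 obstructors and 18 structural cuticle proteins. The last gene, cdase, was matched by the letters of its name only, as it is a neutral ceramidase by its alias, and it is given beside the others without being counted in a role.

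The study asked how the sex determination gene *doublesex* (*dsx*) shapes sexual dimorphism in tissues that differ in how dimorphic they are. Larvae in the final instar received 0.5 μg of double-stranded RNA against a region of *dsx* shared by all its isoforms (*dsx*RNAi), and controls received 1 μg of double-stranded RNA made from a plasmid vector fragment, in each case in 3 μL. RNA of pupae was sequenced from the supraesophageal ganglion (brain), the dorsal first thoracic segment (thoracic horn), the posterodorsal head epithelium (head horn) and the posterior abdominal epidermis (genitalia). Each of the 16 groups, control female, control male, *dsx*RNAi female and *dsx*RNAi male in each tissue, held 6 libraries, made from 6 pupae. No other allele or agent distinguishes the groups, and every animal, controls included, had been injected with double-stranded RNA. The labels give each library a number, S1 to S96, but which of them came from 1 pupa is not stated. As the 4 tissues were dissected from the same pupae, the contrasts between tissues below, which take every library as independent, do not account for this.

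Chitin is a polymer of N-acetylglucosamine that epidermal cells extrude at their apical surface and that becomes the fibre scaffold of the cuticle. At each moult the old cuticle is digested from below by chitinases of the moulting fluid while a new one is laid down, deacetylases alter the new fibres, and proteins with the Rebers-Riddiford chitin-binding domain (the Cpr family) determine much of whether the cuticle is stiff or soft. A freshly formed beetle pupa is covered by its pupal cuticle, and its epidermis goes on to separate from that cuticle and to secrete that of the adult. Per the study, the thoracic horns of *O. taurus* are resorbed in both sexes before the moult to the adult.

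Libraries held 3615803 to 19008005 reads on genes, with a median of 8518004. Expression is given as CPM, the count of a gene scaled to library size by TMM, to compare the libraries in 1 gene, and as FPKM, which divides by gene length, to compare genes. The targeted gene *dsx* was lower in *dsx*RNAi than in control means in each epithelium and sex, from 38.1 ± 4.33 to 8.42 ± 5.88 CPM in male thoracic horns (SD, n = 6 each), and it had at most 8 reads in any brain library. In edgeR's quasi-likelihood test, with p adjusted over all genes tested (Benjamini–Hochberg), the fall of *dsx* passed the threshold of an adjusted p of 0.05 in male head horns only (log2 fold change −2.14, adjusted p = 0.00826). Summed levels of 13 neuronal marker genes ranged between 3622 and 4958 CPM in brain libraries and between 45.6 and 416 CPM in the libraries of the other tissues, and 8 epidermal marker genes between 1408 and 1644 CPM in brain and 1700 and 3783 CPM elsewhere. In such dissected tissue, fewer cells of a type and less RNA per cell cannot be told apart.

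The 37 genes lay on 31 scaffolds of the *O. taurus* v0.5.3 gene models, and 4 of them stood directly beside another. The deacetylase genes serp and verm were neighbours on the plus strand of scaffold 153 (serp at 357961 to 361510, verm at 382023 to 395744), 20512 bp apart. Both obstructor genes were neighbours on the minus strand of scaffold 609 (obst-a at 37014 to 39239, obst-b at 51325 to 52946), 12085 bp apart. The chitinase gene cht5 (scaffold 63, 90143 to 94386, minus strand) and cpr57a (101176 to 113214, plus strand) were separated by 6789 bp and 2 other gene models. Most of the structural genes stood alone, among them cpr100a (scaffold 443, 75319 to 76224, minus strand), as did cda5 (scaffold 1, 1390462 to 1408348, plus strand), kkv (scaffold 5, 2061096 to 2082901, minus strand), cht7 (scaffold 50, 314335 to 331433, minus strand) and cht11 (scaffold 317, 25937 to 38894, minus strand).

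These genes took a small share of the RNA of brain and a large share of that of the epithelia. Over all groups they held between 0.0358% and 0.345% of the reads of a brain library, with a median of 0.101%. Their share was 1.199% to 10.45% in thoracic horn (median 5.69%), 1.07% to 10.63% in head horn (median 4.67%) and 0.936% to 5.29% in genitalia (median 2.31%). No brain library overlapped with a library of an epithelium. The structural genes made the widest range, with 0.0331% to 6.77% of thoracic horn reads, against 0.609% to 3.82% for the chitinases and 0.365% to 1.79% for the deacetylases. The map of mean FPKM by gene and tissue shows the levels behind these shares.

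**Figure D1:**
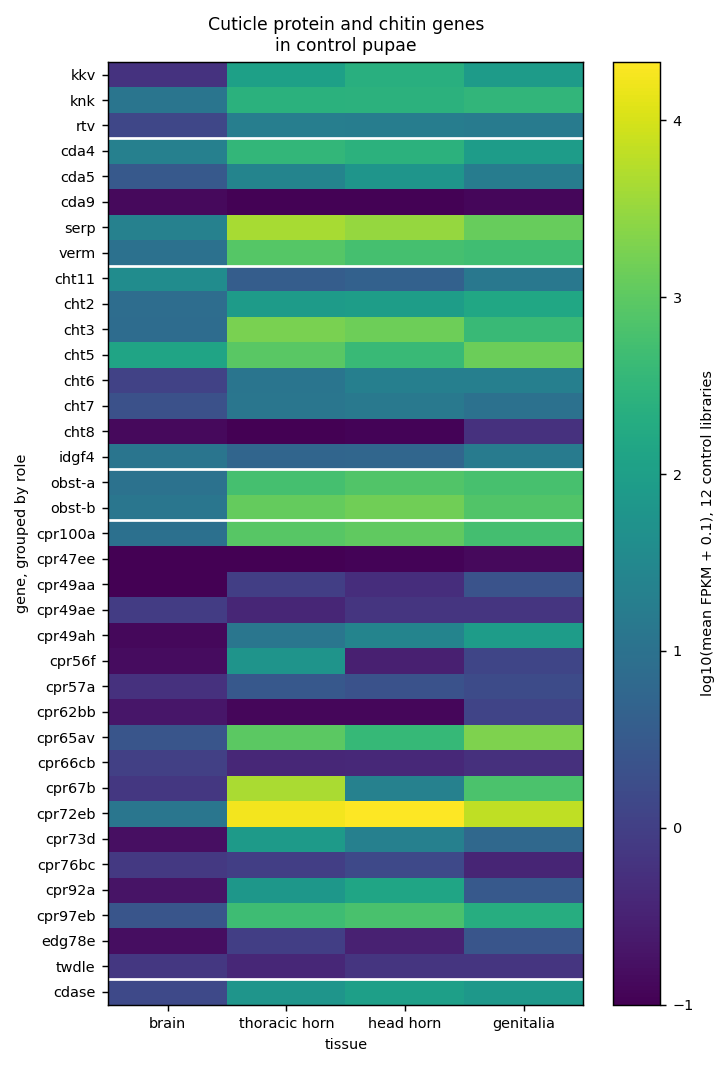
Mean level of each of the 37 genes (rows, grouped by role with white lines between roles) in the 4 tissues (columns) of control pupae, as log10 of the mean FPKM over 12 control libraries plus 0.1. The brightest cells are cpr72eb in the head horn (mean 21430 FPKM) and the thoracic horn (mean 17270 FPKM), and the brain column is darker, with cht5 (mean 128 FPKM) and cht11 (38.3 FPKM) at its top.

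Chitin synthesis is represented by kkv, which is named after the *Drosophila* chitin synthase krotzkopf verkehrt, and by knk and rtv, named after *Drosophila* genes needed for an ordered chitin matrix. Control means of kkv were 226 FPKM in head horn, 109 in thoracic horn, 84.6 in genitalia and 0.505 in brain. All 3 genes were lower in brain than in the mean of the 3 epithelia, by a log2 fold change of −8.76 ± 0.60 for kkv, −5.35 ± 0.21 for knk and −4.58 ± 0.13 for rtv (SE, 12 control libraries per tissue, edgeR's quasi-likelihood test with adjusted p = 1.69e-17, 2.73e-26 and 5.67e-31). In the same fit kkv and rtv were lower in genitalia than in the horns (−1.48 ± 0.40 and −0.72 ± 0.10), whereas knk did not pass (−0.29 ± 0.16, adjusted p = 0.108). None of the 3 passed between head and thoracic horn. By FPKM the control means of rtv were closer, at 16.75 in genitalia, 18.93 in thoracic horn and 18.38 in head horn. The mean FPKM of knk was highest in genitalia, at 318, against 257 in thoracic horn and 268 in head horn. The part of the scaling in the differences between genitalia and horns was not tested.

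Among the deacetylases, serp (serpentine) and verm (vermiform) are known in *Drosophila* from the chitin of the tracheal tubes and the cuticle. The level of serp ranged from 2445 to 6894 FPKM over the 12 control thoracic horn libraries (median 4229), and its means were 3081 FPKM in head horn, 1258 in genitalia and 22.3 in brain. Its neighbour verm had means of 846, 571, 488 and 9.71 FPKM in the same order of tissues. All 4 deacetylases tested, serp, verm, cda4 and cda5, were lower in brain than in the epithelia (serp −7.72 ± 0.29, adjusted p = 1.43e-26), and all 4 were lower in genitalia than in the horns, from −2.38 ± 0.31 for cda4 to −1.08 ± 0.26 for verm (log2 fold change ± SE). The fifth, cda9, had 47 reads in all, in 35 of the 96 libraries, and did not enter any test.

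The chitinases were less uniform. The moulting-fluid type is represented by cht5, which in the beetle *Tribolium castaneum* is needed for the moult to the adult, and it was the member with the highest mean level in brain (128 FPKM) as well as one of the highest in genitalia (1367 FPKM), with 934 FPKM in thoracic horn and 403 in head horn. Its brain mean rested on few libraries, since the 12 values ranged from 2.34 to 954 FPKM with a median of 25.0. Levels of cht3 followed the deacetylases, with means of 1797 FPKM in thoracic horn, 1419 in head horn, 411 in genitalia and 7.66 in brain. In contrast, cht11 was highest in brain, at 38.3 ± 2.78 FPKM (SD, n = 12), followed by genitalia (13.5 FPKM), head horn (4.33 FPKM) and thoracic horn (3.70 FPKM), and the head and thoracic horn values did not differ beyond their spread (log2 fold change 0.17 ± 0.10, adjusted p = 0.285). Of the 7 tested genes of this role, 5 were lower in brain, cht11 was higher (1.94 ± 0.07, adjusted p = 4.74e-28), and idgf4, named after the *Drosophila* imaginal disc growth factors, which are chitinase-like proteins, did not pass (−0.25 ± 0.31, adjusted p = 0.47).

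Obstructors are secreted chitin-binding proteins, known from the organization of the cuticle matrix in *Drosophila*. Control means of obst-b were 1467 FPKM in head horn, 1201 in thoracic horn, 769 in genitalia and 12.5 in brain, and those of obst-a were 761, 572, 597 and 9.93 FPKM. In edgeR's test on TMM-scaled counts, both were lower in brain (obst-b −7.46 ± 0.51, obst-a −6.90 ± 0.55). Both were also lower in genitalia than in the mean of the horns (−1.45 ± 0.37 and −0.89 ± 0.39, adjusted p = 0.000704 and 0.047). For obst-a the order of genitalia and thoracic horn depended on the scaling. Its mean CPM was 997 in genitalia, 1504 in thoracic horn and 1932 in head horn, whereas its mean FPKM was higher in genitalia than in thoracic horn. The part of the scaling in its lower level in genitalia was not tested.

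Structural proteins held both the member with the most reads over the 96 libraries and that with the fewest. The mean level of cpr72eb, a Cpr family gene, ranked 7 of 17483 genes in control head horn, 8 in thoracic horn and 6 in genitalia (6599 FPKM), but 6394 in brain (12.0 FPKM). Means of cpr65av were 2024 FPKM in genitalia, 956 in thoracic horn and 380 in head horn, and those of cpr100a were 549, 897 and 1072 FPKM. At the other end, cpr47ee had 7 reads in all, in 6 libraries, and did not enter any test. Of the 16 structural genes tested, 12 were lower in brain than in the epithelia, with the largest differences at cpr72eb (−10.91 ± 0.79), cpr49ah (−10.47 ± 0.99) and cpr67b (−9.99 ± 0.62), while cpr66cb, cpr49ae, cpr76bc and twdle, a gene of the Tweedle family, did not pass. The control means of these 4 genes were at most 1.43 FPKM in every tissue.

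Across the 33 members that could be tested in controls, 27 were lower and 1 was higher in brain than in the mean of the 3 epithelia, with a median log2 fold change of −5.60. Over all 11148 genes tested, 81.2% passed in this comparison, 43% lower and 38.2% higher, with a median of −0.06. In *dsx*RNAi pupae the same contrast again gave 27 lower and 1 higher, of 34 members tested (background 76.7%, 40% lower and 36.8% higher, median −5.55). Genitalia differed from the mean of the 2 horns in 23 control members, 17 lower and 6 higher (background 62.9%, 27.7% lower and 35.2% higher), and the 6 higher were idgf4, cht11, cpr49ah, edg78e, cpr65av and cpr49aa. In *dsx*RNAi pupae 14 were lower and 3 higher (background 54.7%, 27.1% lower and 27.6% higher), the latter being cpr62bb (5.64 ± 0.97), cpr49aa (2.31 ± 0.53) and cht11 (1.15 ± 0.10). Members with a large difference between genitalia and horns in controls included cpr92a (−6.26), cpr73d (−2.98) and cht3 (−2.53). These contrasts use TMM-scaled counts, and the part of the scaling in the members that were lower in genitalia was not tested.

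Between the horns of the head and those of the thorax the enzymes did not pass the test, and a handful of structural genes did. In controls 5 structural genes were lower in head horn than in thoracic horn and cdase was higher (0.66), against a background of 12.3% of genes called, 5.87% lower and 6.41% higher. The log2 fold changes were −7.88 ± 0.56 for cpr67b (adjusted p = 9.48e-15), −7.41 ± 1.03 for cpr56f (adjusted p = 5.23e-07), −2.59 ± 0.59 for cpr73d (adjusted p = 0.00165), −2.26 ± 0.69 for edg78e (adjusted p = 0.0231) and −0.53 ± 0.18 for cpr57a (adjusted p = 0.0395). In *dsx*RNAi pupae cpr56f (−8.34 ± 1.48), cpr67b (−8.02 ± 0.73), cpr73d (−2.57 ± 0.65) and cpr49aa (−2.71 ± 0.76) were lower in head horn, with 8.82% of genes called, 4.4% lower and 4.42% higher. DESeq2 fitted over all 96 libraries called 3 members in the control contrast, with 9.94% of genes called.

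Levels of cpr67b, a Cpr family gene on scaffold 3 (350220 to 351542, minus strand), ranged from 427 to 8432 FPKM over the 12 control thoracic horn libraries (median 4860) and from 3.26 to 50.9 FPKM over the 12 of head horn (median 21.7). The control libraries of the 2 horns did not overlap. Genitalia stood between them with a mean of 660 FPKM, and brain had 0.649. For cpr56f the thoracic horn values ran from 0.141 to 641 FPKM with a median of 3.65, so that its mean of 58.6 FPKM was far above its typical library, whereas no control head horn library exceeded 0.603 FPKM.

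Within a group, libraries differed widely in these genes. The median coefficient of variation of the members exceeded that of all genes in each of the 16 groups, from 0.281 against 0.123 in control male genitalia to 1.06 against 0.237 in *dsx*RNAi female thoracic horn, over genes with a mean of at least 5 CPM. In head horn the share of reads on the members was 2.13% to 9.97% in control females (median 5.92%), 3.09% to 7.72% in control males (4.13%), 1.07% to 8.85% in *dsx*RNAi females (3.79%) and 2.43% to 10.63% in *dsx*RNAi males (4.58%). All 4 groups overlapped, and control males spanned the narrowest range. In thoracic horn the medians were 8.60% in control females, 3.65% in control males, 5.39% in *dsx*RNAi females and 6.05% in *dsx*RNAi males, again with overlap of all groups.

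**Figure D2:**
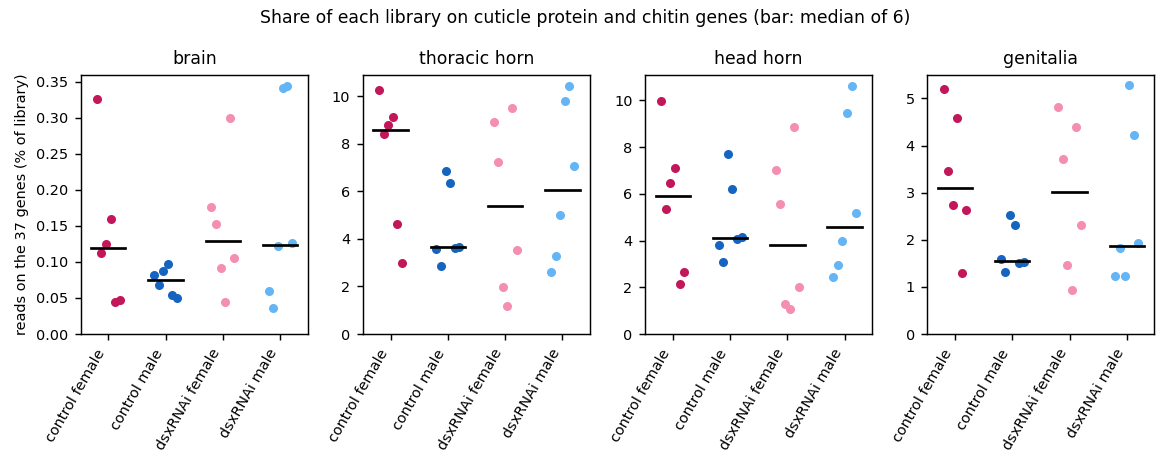
Share of each library's reads that fell on the 37 genes (percent), for the 6 libraries of each of the 16 groups, with tissues side by side and a bar at the median of each group. Brain libraries lie at or below 0.345%, and in the epithelia the groups overlap, with maxima of 10.26% in control female, 6.87% in control male, 9.499% in *dsx*RNAi female and 10.45% in *dsx*RNAi male thoracic horn.

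The spread was shared between members. The mean of each group was taken from log2(CPM + 0.5), and each gene's deviations in a tissue were divided by their SD. The first axis over the 24 libraries of a tissue then carried 73.7% of the members' variance in thoracic horn, 72.2% in head horn, 70.3% in genitalia and 61.8% in brain. The first axis of all genes with a mean of at least 5 CPM carried 31.5%, 36.3%, 40.5% and 17.9% of their variance. The deviation of a member had a median Pearson's r of 0.882 with the mean deviation of the other members in thoracic horn, 0.901 in head horn, 0.868 in genitalia and 0.859 in brain. For the other genes the median r with the members was between −0.10 and 0.00, and 12.5% to 26.9% of them had an r over 0.5, against 25 of 27 members in thoracic horn, 22 of 26 in head horn, 26 of 27 in genitalia and 13 of 17 in brain. These correlations describe 24 libraries of 4 groups that share library depth and dissection, and no test was made of them. The genes of a library also share its TMM factor. In head horn it was 0.367 in S59, the library with the highest share of reads on the members, and 1.11 in S52, with the lowest.

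In head horn obst-a followed the others most closely, with r = 0.99. Its CPM ranged from 407.5 to 5701 in control females, 616 to 5728 in control males, 111.9 to 4809 in *dsx*RNAi females and 433.4 to 12740 in *dsx*RNAi males. The lead member by level, cpr72eb, ran from 2796 to 96800 CPM in control females (median 35160) and from 24.6 to 82800 CPM in *dsx*RNAi females (median 13240). In both genes the highest library was S61 for control females, S69 for control males, S53 for *dsx*RNAi females and S59 for *dsx*RNAi males. Members with an r of at most 0.5 were cht11 (−0.29), cpr57a (−0.21), cda5 (0.04) and cpr100a (0.43) in brain, cht5 (0.00) and cht11 (0.32) in thoracic horn, cpr73d (0.11), cpr67b (0.12), cht11 (0.30) and cht5 (0.45) in head horn, and cht3 (0.36) in genitalia.

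**Figure D3:**
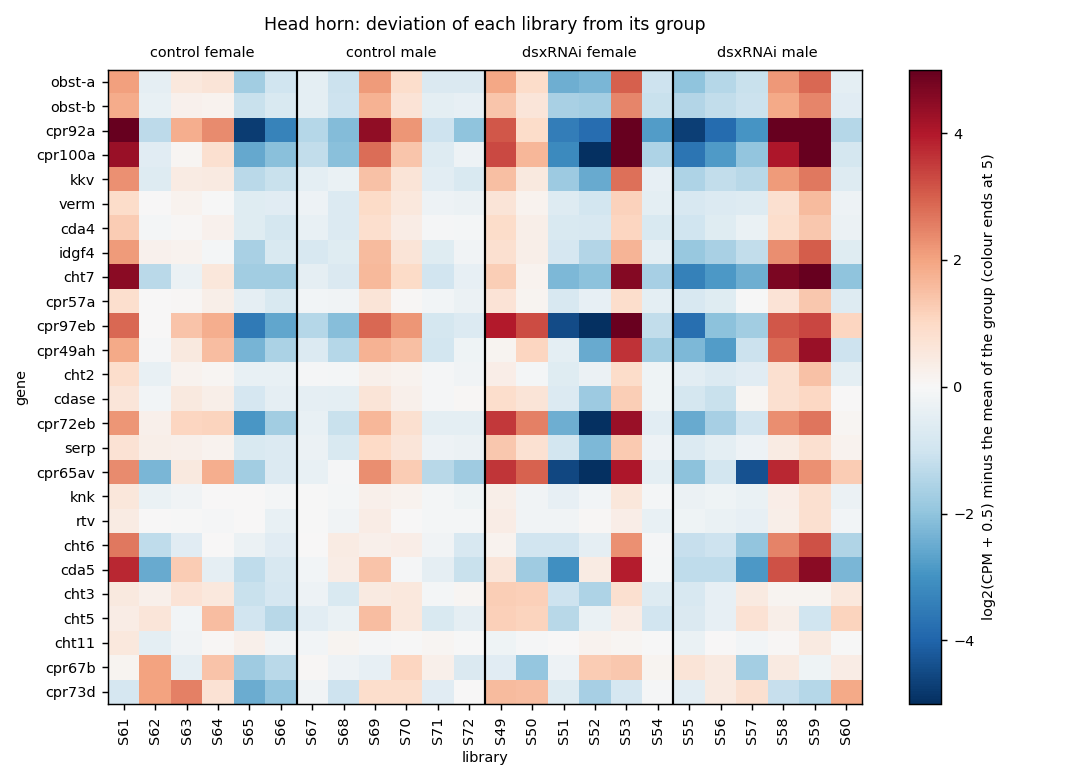
Deviation of each member with a mean of at least 5 CPM (rows, 26 genes) from its group mean in the 24 head horn libraries (columns, in 4 groups of 6), as log2(CPM + 0.5), where red is above and blue below the group mean. Whole columns are red or blue together, and cht11, cpr67b and cpr73d depart from the columns.

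Genes that supply the chitin synthase varied in how far they moved with the members. Of 9 names of the pathway from sugar to UDP-N-acetylglucosamine, 7 were found. The deviation of their summed CPM, which weighs abundant genes most, was set against the mean deviation of the members. Its r was 0.96 in genitalia, 0.95 in head horn, 0.88 in thoracic horn and 0.29 in brain. For gfat1, which encodes the enzyme at the entry of the hexosamine pathway, r was 0.97 in head horn, 0.96 in genitalia and 0.91 in thoracic horn, and for nst, a mutase of the same pathway, 0.85, 0.82 and 0.85. The hexokinase gene hex-a had only 0.15, 0.31 and −0.02 in these tissues, and the trehalase gene treh 0.68, −0.52 and 0.33. The regulators of moulting went in both directions. The deviation of their summed CPM had an r of 0.78 in head horn, −0.09 in thoracic horn, −0.50 in genitalia and −0.60 in brain. The nuclear receptor gene eip78c had an r of −0.90 in head horn, −0.88 in thoracic horn, −0.86 in genitalia and −0.64 in brain. The zinc finger gene br (broad), known in insects from the specification of the pupal stage, had −0.90 and −0.78 in head and thoracic horn, 0.49 in genitalia and 0.65 in brain. In head horn crol (0.85), hr38 (0.77), eip75b (0.69) and grh (0.65) went with the members, and in thoracic horn their values were −0.19, 0.01, 0.44 and −0.19. Markers of other cell types moved too. With the summed level of 4 haemocyte genes the members' r was −0.82 in thoracic horn, 0.31 in head horn, 0.28 in genitalia and 0.13 in brain. In thoracic horn that level ran from 573.7 to 5647 CPM in control females and 745.3 to 3655 CPM in control males. It ran from 394.5 to 11240 CPM in *dsx*RNAi females and 859.4 to 6023 CPM in *dsx*RNAi males. With 11 muscle genes the members' r was 0.87 in genitalia, 0.52 in brain, 0.13 in thoracic horn and −0.54 in head horn. With 13 neuronal genes it was −0.83 in brain, −0.43 in thoracic horn, −0.02 in head horn and 0.56 in genitalia. The tracheal list held 5 genes, of which 2 are gene models named trh. It had 0.92 in brain, 0.76 in head horn, 0.65 in thoracic horn and −0.12 in genitalia. The summed tracheal level in brain was 84.2 to 101 CPM in control males and 81.3 to 146 CPM in the other groups. The 8 epidermal markers had 0.50 in brain, 0.12 in head horn, −0.56 in thoracic horn and −0.47 in genitalia. No gene of the haemocyte, muscle or tracheal lists was at 0 in any of these groups. Reads per library had an r of 0.13 to 0.44. The part of these in the members' spread was not tested.

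Control females were compared with control males to see which members differed between the sexes. In genitalia 5 of 28 members passed, all of them higher in females, at a background of 10.3% of genes called, 6.53% higher and 3.73% lower in females (members' median log2 fold change 0.79, all genes 0.02). The called members were cpr100a (4.13 ± 1.11, adjusted p = 0.043), the deacetylase gene cda5 (2.79 ± 0.77, adjusted p = 0.0448), cpr49ah (2.68 ± 0.74, adjusted p = 0.0448), cpr72eb (2.45 ± 0.70, adjusted p = 0.0467) and cht11 (0.51 ± 0.14, adjusted p = 0.0462), each as log2 fold change ± SE from edgeR. Without its adjustment 18 members had a p under 0.05, all higher in females, where 37% of all genes did and 21.1% were higher in females. DESeq2 over all 96 libraries called 6 members, cda5, cpr72eb, cht11, cpr97eb, cpr100a and cpr62bb, with 27.6% of genes called.

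In control genitalia cda5 ranged from 39.96 to 832 CPM in females (median 54.9) and from 21.01 to 35.1 CPM in males (median 29.6). It was the only member whose groups did not overlap in any of the 16 comparisons of 2 groups within a tissue, and 1 female library, S85, stood far above the rest. In this comparison the groups did not overlap in 3.25% of all genes tested. Levels of cpr100a were 38.9 to 5520 CPM in females (median 402) and 24.4 to 133 CPM in males (median 48.3), with overlap at the low end of the females. Those of cpr72eb were 1600 to 19780 CPM (median 8305) against 535 to 4035 CPM (median 1164), and those of cpr49ah 8.69 to 622 CPM (median 110) against 20.3 to 54.5 CPM (median 26.4). The difference in cht11 was small and narrow, with 20.5 to 36.6 CPM in females (median 28.8) and 16.5 to 22.3 CPM in males (median 20.2).

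The adjusted p of these calls lay close to the threshold, and most were lost when 1 library was left out. Without female library S89, 20 members passed, all higher in females and kkv, cht3, cht5, cht7, serp and both obstructors among them. Without female library S90 only cht11 did (adjusted p = 0.0427), and without any 1 of the other 10 libraries, S85 to S88 and S91 to S96, none did. The fold changes stayed positive in these 12 fits, at 2.16 to 4.42 for cpr100a, 1.25 to 3.00 for cda5, 1.83 to 2.93 for cpr49ah, 2.17 to 2.82 for cpr72eb and 0.42 to 0.59 for cht11, with adjusted p of at most 0.101. Calls over all genes ranged from 121 to 4568 in the same fits. Their number in the fit without S89 alone is not given here, so its 20 members cannot be read as particular to these genes. In that fit an edgeR p of 0.01547 passed (twdle, adjusted p = 0.03706). With all libraries an edgeR p of 0.003997 gave an adjusted p of 0.0467 (cpr72eb). No member passed when all 24 genitalia libraries were fitted together, or with no filter on low counts. The share of all genes called under those settings is not given here, so a loss of calls limited to the members cannot be read from this. Summed muscle markers, 11 genes, ran from 3173 to 12640 CPM in the control females (median 8386) and from 2534 to 3945 CPM in the control males (median 2849), so they moved with the sexes in the same direction as the members, and their part in the difference was not tested.

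In the other tissues of controls no member passed edgeR's threshold between the sexes, of 24 tested in brain, 27 in thoracic horn and 27 in head horn, where 0.16%, 0.355% and 6.53% of all genes did. Unadjusted p under 0.05 was reached by 6, 9 and 6 members, where 8.97%, 10.4% and 24.2% of all genes reached it. DESeq2 over all 96 libraries called 2 members in brain (cht3 and cht5), 3 in thoracic horn (cda5, cht6 and cpr56f) and 2 in head horn (cpr73d and cht7), where it called 0.2%, 1.59% and 6.21% of all genes. The members' medians of the log2 fold change were 0.40, 0.80 and 0.21, and the median of the female libraries was above that of the males in 25 of 27 members in thoracic horn, 20 of 27 in head horn and 18 of 24 in brain, where this held for 51.83%, 49.95% and 51.65% of all genes tested. By the fitted log2 fold change 24 of 27 members were higher in females in thoracic horn, 16 of 27 in head horn and 20 of 24 in brain. The share of all genes by that measure is not given here. As members moved together between libraries, these are not separate observations.

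In thoracic horn cda5 reached 2851 CPM in control female library S37, but the female median was 82.5 CPM and the male libraries ran from 6.75 to 75.8 CPM (median 25.5). The fitted log2 fold change was 4.09 ± 1.33 (edgeR adjusted p = 0.326), and it ranged from 1.48 to 4.52 when each library in turn was left out. The chitinase gene cht6 was at 41.04 to 1364 CPM in females (median 162) and 35.98 to 101 CPM in males (median 57.4), which gave 2.45 ± 0.81 (adjusted p = 0.332). In head horn cpr73d came nearest to the threshold, at 19.02 to 614 CPM in females (median 119) and 12.1 to 47.6 CPM in males (median 24.4), with 2.94 ± 0.83 (adjusted p = 0.0555). It passed without female library S65 (3.19, adjusted p = 0.0295) and without female library S66 (3.18, adjusted p = 0.0381). In brain cht5 was at 2.86 to 1158 CPM in females (median 138) and 3.17 to 61.4 CPM in males (median 10.1), with 3.69 ± 1.24 (adjusted p = 0.39).

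The knockdown was compared with controls within each sex, and the male comparison shares its control male libraries with the comparison of control sexes. In males no member passed in any tissue by edgeR, of 24 in brain, 28 in thoracic horn, 27 in head horn and 29 in genitalia, with 0%, 0%, 0.393% and 0% of all genes called. An unadjusted p under 0.05 was reached by 9, 10, 6 and 8 members, of which 9, 9, 6 and 8 were higher in *dsx*RNAi, where 6.13%, 6.59%, 15.6% and 6.23% of all genes reached it and 3.55%, 4.46%, 8.69% and 3.83% did so upward. DESeq2 over all 96 libraries called 2 members in brain (cht3 and cht5), 7 in thoracic horn (kkv, cda5, cht6, cpr92a, cht7, cpr100a and cpr56f), 4 in head horn (cda5, cht6, cht7 and cpr100a) and 2 in genitalia (cpr92a and cpr100a), where it called 0.26%, 1.98%, 6.18% and 0.302% of all genes. The members' medians were 0.80, 0.93, 0.84 and 0.61 on the log2 scale.

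In thoracic horn *dsx*RNAi males had 2 libraries that stood above the other 4. In library S35 cda5 reached 6601 CPM and in library S34 it reached 3488 CPM, where the group's lowest library was at 11.6 CPM and its median at 48.7 CPM. The control males, at 6.75 to 75.8 CPM, overlapped with the low end of the group, and the log2 fold change was 5.69 ± 1.70 (edgeR adjusted p = 0.684). For cht7, known in *Tribolium* from abdominal contraction and wing expansion at the moults, the values were 6.71 to 2755 CPM (median 18.2) against 3.92 to 41.4 CPM (median 8.91), with 5.21 ± 1.63 (edgeR adjusted p = 0.684) and 3.72 to 5.66 when each library in turn was left out. For cpr100a they were 84.6 to 39590 CPM (median 391) against 98.8 to 779 CPM (median 164), and for kkv 315 to 7294 CPM (median 766) against 252 to 985 CPM (median 395). Only cht5 went the other way among the genes with an unadjusted p under 0.05, at 168 to 1960 CPM (median 471) against 957 to 4566 CPM (median 1856), with −1.73 ± 0.57 (edgeR adjusted p = 0.698).

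**Figure D4:**
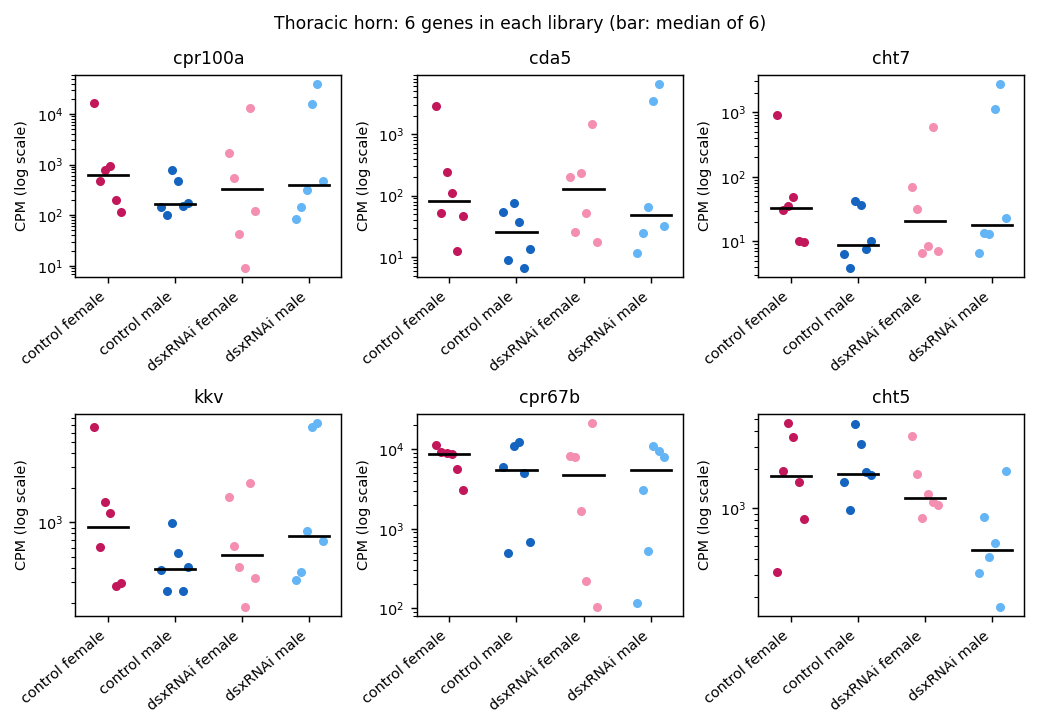
CPM on a log axis of cpr100a, cda5, cht7, kkv, cpr67b and cht5 in each thoracic horn library, 6 per group, with a bar at the median. For cpr100a, cda5, cht7 and kkv at least the highest library of control females and of *dsx*RNAi females and 2 *dsx*RNAi male libraries lie above every control male library. For cda5 this is above 75.8 CPM, and further female libraries lie above it. The ranges of the groups overlap.

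In head horn the highest *dsx*RNAi male library, S59, reached 4211 CPM of cht7 (median 13.8), 14580 CPM of cda5 (median 268) and 51420 CPM of cpr100a (median 524). Control male maxima were 44.8, 423 and 3687 CPM, and control male medians were 10.3, 144 and 397 CPM. The TMM factor was 0.367 for S59 and 0.580 for S69, the control male library at the cda5 and cpr100a maxima. At equal depth a lower factor gives a higher CPM for the same count. The share of reads on the members, which does not use this factor, was 10.63% in S59 and 7.72% in S69. The part of the scaling in these maxima was not tested. The fits gave 5.80 ± 1.78 for cht7 and 4.28 ± 1.31 for cda5 (edgeR adjusted p = 0.199 for both). In genitalia cpr56f, a Cpr family gene, had the lowest p, with 1.04 to 109 CPM in *dsx*RNAi males (median 30.5) and 0.394 to 4.42 CPM in control males (median 1.24), and 4.27 ± 0.99 (edgeR adjusted p = 0.751). There cpr100a was at 23.03 to 6199 CPM (median 63.7) against 24.4 to 133 CPM, with 4.67 ± 1.46 (edgeR adjusted p = 0.783). In brain cht5 ran from 1.03 to 1038 CPM (median 71.4) against 3.17 to 61.4 CPM in control males, and cht3 from 8.18 to 394 CPM (median 37.3) against 5.14 to 32.9 CPM (median 11.8).

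In females no member passed between *dsx*RNAi and control by edgeR, of 23, 27, 27 and 28 tested in brain, thoracic horn, head horn and genitalia, where 0%, 0%, 0% and 0.0101% of all genes did. Unadjusted p under 0.05 was reached by 1, 0, 1 and 0 members, and by 3.56%, 2.23%, 6.96% and 2.56% of all genes. DESeq2 over all 96 libraries called 1 member, cpr49ae in head horn, where it called 1.75% of all genes. The 2 lowest p were those of cpr65av in brain (2.74 ± 1.08, edgeR adjusted p = 0.999) and of cpr73d in head horn (−1.99 ± 0.90, edgeR adjusted p = 0.704). The medians of the members' log2 fold changes were 0.18, −0.38, −0.15 and 0.04. In thoracic horn the median of the *dsx*RNAi libraries was below that of the control libraries in 24 of 27 members, and in head horn in 23 of 27, where this held for 48.6% and 50.3% of all genes tested. These members moved together as well.

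Between *dsx*RNAi females and *dsx*RNAi males no member passed in any tissue by edgeR, of 23 in brain, 27 in thoracic horn, 27 in head horn and 28 in genitalia, where 0.14%, 0%, 0% and 2.06% of all genes did, and DESeq2 over all 96 libraries called none, with 0.2%, 0.746%, 3.01% and 19.5% of all genes called. An unadjusted p under 0.05 was reached in genitalia by cht5 (1.44 ± 0.64, edgeR adjusted p = 0.18) and by no member elsewhere, where 7.04%, 3.81%, 6.52% and 25.9% of all genes reached it in the 4 tissues. Without female library S77, cpr56f passed in genitalia (−5.98, adjusted p = 0.0455). The members' medians, in the same order of tissues, were −0.03, −0.39, −0.64 and 0.18, beside 0.40, 0.80, 0.21 and 0.79 between the control sexes, which come from other libraries.

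Whether the difference between the sexes itself changed with the knockdown was tested as the interaction over the 24 libraries of a tissue, where a negative value means a smaller female excess under *dsx*RNAi. No member passed by edgeR, of 26, 29, 29 and 33 tested in brain, thoracic horn, head horn and genitalia, with 0%, 0.0105%, 1.44% and 0.0191% of all genes called. An unadjusted p under 0.05 was reached by 2, 9, 7 and 4 members and by 4.42%, 6.38%, 14.8% and 4.12% of all genes. DESeq2 over all 96 libraries called 5 members in thoracic horn (kkv, cda5, cht6, cht7 and cpr56f) and 4 in head horn (cda5, cht6 and cht7 lower, cpr49ae higher), where it called 1.17% and 6.04% of all genes, and none in brain or genitalia. By edgeR cda5 had −6.51 ± 2.21 in thoracic horn (adjusted p = 0.751), cht6 −4.05 ± 1.32 (adjusted p = 0.729) and kkv −3.52 ± 1.25 (adjusted p = 0.76). In head horn cht7 had −6.29 ± 2.33 (adjusted p = 0.185) and cpr49ae 4.505 ± 1.454 (adjusted p = 0.118). The median interaction of the members was −0.41, −1.14, −0.97 and −0.57.

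**Figure D5:**
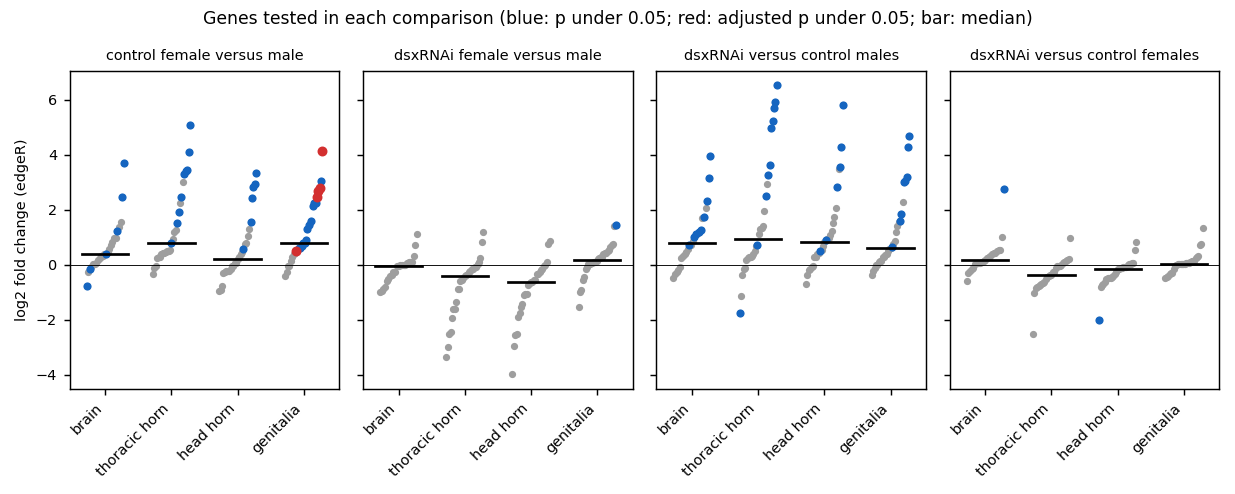
Fitted log2 fold change of each tested member in the 4 comparisons of 2 groups, by tissue, with a bar at the median of the members, blue for an unadjusted p under 0.05 and red for an adjusted p under 0.05. Medians run from 0.21 to 0.93 between the control sexes and between *dsx*RNAi and control males and from −0.64 to 0.18 in both other comparisons, and the red points are the 5 members called in control genitalia.

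The pathway and regulator lists around these genes gave few calls between groups. Of the 7 precursor genes, gfat1 was higher in control females than in control males in genitalia (0.97, edgeR adjusted p = 0.0402, with 10.3% of all genes called), and none passed between the sexes in the other tissues or in any comparison with *dsx*RNAi libraries within a tissue. In brain of controls 5 of the 7 were lower than in the epithelia, gfat1 by −1.80 on the log2 scale, and treh was higher (0.75), where 43% of all genes were lower and 38.2% higher. Of 12 regulators found among 15 names, the nuclear receptor gene hr38 was higher in control females in thoracic horn (1.83, adjusted p = 0.0362, with 0.355% of all genes called) and in genitalia (0.89, adjusted p = 0.0373, with 10.3%).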

How the data were processed

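RNA of 4 tissues was sequenced in 96 libraries, 6 per treatment, sex and tissue. Per the submitters' processing notes, reads were trimmed with Trimmomatic 0.32, mapped with TopHat2 2.1.0 to the *O. taurus* v0.5.3 gene models and counted with HTSeq 0.6.1p1, and the authors deposited these counts for 17483 genes as raw read numbers. FPKM values were deposited too, which in the files are the count times 1 factor per library and 1 factor per gene.

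Counts were used for every test. Libraries of a comparison were scaled by TMM, filtered with filterByExpr given the groups, and tested in R 4.3.3 with edgeR 4.0.16 (quasi-likelihood, robust), with Benjamini–Hochberg adjustment over all genes tested and a threshold of 0.05. The SE is the absolute log2 fold change over the square root of F. The interaction used the 24 libraries of a tissue, and contrasts between tissues the 48 libraries of a treatment. CPM in the text are TMM-scaled over all 96 libraries, and within-group deviations use log2(CPM + 0.5). For the first axis and for the mean deviation of the members, the deviations of each gene were divided by their SD. Python 3.11.15, numpy 2.4.6, pandas 2.3.3, scipy 1.17.1 and matplotlib 3.10.9 made the summaries and plots. The tests were tested on simulated data. Alternatives were DESeq2 1.42.0 over all 96 libraries, edgeR with the size factors of DESeq2, edgeR without filtering, a joint fit of a tissue's 24 libraries, each library left out, and CPM per kilobase for the order of tissues.

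Members and gene lists were chosen with earlier results of these data known. Chosen for naming were kkv, knk, rtv, verm, serp and all cda, cht, idgf and obst genes, with *dsx* and called genes of the precursor and regulator lists. Per comparison, up to 10 called members of largest change were added, or the 3 of lowest p where fewer than 3 were called. Per tissue, the 10 of highest control FPKM were added. Not all of these are given in the text, with cht2 and cht8 among those left out. Others were named after their values were seen. Whether same-numbered places in different groups share an animal, and a sequencing batch, are not given in the sources used here. Reads of paralogous genes can be split by the counting, and errors over libraries cover the spread between pupae. Sequences were not used here.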

Additional observations from a re-analysis of the deposited data

Results flagged for a closer look

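In 104 groups of 6 libraries, which gave the share of reads on the members and the CPM of 4 to 7 members per tissue with values given by group, the gap between an end library and the next was compared with the range of the group by Dixon's test. It picked out 28 values, all of them the highest of their group, and chance picks out about 1 in 20 groups where values are independent and normally distributed. These CPM values are skewed, move together and were partly chosen for large differences, so that rate is no yardstick here. None of these was a share of reads.

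In thoracic horn, control female library S37 had 2851 CPM of cda5 (others at most 242), 909 of cht7 (at most 49.4), 16280 of cpr100a (at most 932.5), 1364 of cht6 (at most 249), 6698 of kkv (at most 1511) and 2464 of cpr56f (at most 52.8). The *dsx*RNAi female library S29 had 1435 CPM of cda5 (others at most 232), 593 of cht7 (at most 69.7), 12890 of cpr100a (at most 1716) and 419.7 of cpr56f (at most 48.02), and *dsx*RNAi male library S35 had 4548 CPM of cpr56f (others at most 91.8).

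In head horn, control female library S61 had 967 CPM of cht7, 4505 of cda5 and 12720 of cpr100a, where the other 5 reached at most 61.8, 786 and 1125. The *dsx*RNAi female library S53 had 661, 2851 and 9080 CPM of the same genes, where the others reached at most 63.7, 291 and 2538. Control male library S69 had 423 CPM of cda5 (others at most 200) and 3687 of cpr100a (at most 1407).

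In genitalia, *dsx*RNAi female library S77 had 6150 CPM of cpr100a, 651 of cda5, 1497 of cpr49ah and 71.8 of cpr56f, where the others reached at most 753, 98.8, 229.6 and 1.95. Control female library S85 had 5520 CPM of cpr100a (others at most 582), 832 of cda5 (at most 149.5) and 9.57 of cpr56f (at most 1.34).

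In brain, cht5 was at 992 CPM in *dsx*RNAi female library S5 (others at most 312) and at 1158 CPM in control female library S13 (others at most 282).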

How the results depend on the processing

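No paired analysis was possible because the labels give each library a number of its own, so no groups share replicate numbers, and libraries of the 4 tissues cannot be assigned to pupae. DESeq2's size factors in edgeR left all 26 counts of called members within 1.5 times. DESeq2 over all 96 libraries left 15 so and gave, where edgeR had 0 members, between the control sexes 2 in brain, 3 in thoracic horn and 2 in head horn, between *dsx*RNAi and control males 2 in brain, 7 in thoracic horn, 4 in head horn and 2 in genitalia, between *dsx*RNAi and control females 1 in head horn, and for the interaction 5 in thoracic horn and 4 in head horn, and it gave 3 in place of 6 between the control horns. All 4 groups in one fit gave 1 member between control sexes in head horn and 0 in genitalia, and no filter gave 0 in genitalia. The shares of all genes called in the joint and unfiltered fits are not given here. The causes were not tested.

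With each library left out in turn, called members between control sexes in genitalia numbered 0 to 20 and in head horn 0 to 1, and between *dsx*RNAi sexes in genitalia 0 to 1, with 0 in the other 13 comparisons of 2 groups. Calls over all genes between control sexes in genitalia varied widely in these fits as well. Of the named fold changes, cpr56f between *dsx*RNAi and control females in thoracic horn was −2.50, with −5.15 to 2.15 over these fits and the positive value without control female library S37, and cpr92a between those groups in genitalia was 1.35, with −2.03 to 3.09 and the negative value without *dsx*RNAi female library S77. The order of the 4 tissues by CPM per kilobase matched that by FPKM in 26 of 37 members in controls and 22 of 37 under *dsx*RNAi. Members with few reads, such as cda9 and cpr47ee, are limited by depth.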

Other observations

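The libraries of a group carry 6 consecutive numbers, and the share of reads on the 37 genes had a like order in the 3 epithelia when the libraries of each group were given places 1 to 6 by number. In control females the highest share was at place 1 and the second at place 4 in all 3 epithelia. Their lowest was at place 6 in thoracic horn and at place 5 in head horn and genitalia. In control males the highest was at place 3, the second at place 4 and the lowest at place 2 in all 3. In *dsx*RNAi females places 1 and 5 held both highest shares and place 4 the lowest in all 3. In *dsx*RNAi males places 4 and 5 held both highest, and the lowest was at place 1 in both horns and at place 3 in genitalia. The labels do not say that libraries with the same place came from the same pupa, and no test was made.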
